A study of Mus musculus with 4 samples.

Results

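The 10 genes described here encode secreted factors that act on macrophages, granulocytes and other cells of an inflamed tissue: Csf1, Csf2, Csf3, Il34, Il6, Il33, Il1a, Il1b, Lif and Tslp. They were chosen by name as colony-stimulating factors and cytokines, with earlier results of these data known. All 10 were found among the 23185 named genes of the table, each with 1 probe set. Expression was measured on 4 Affymetrix arrays, with 1 array for each of 4 mouse cell populations of adult lung origin. One population consisted of Club-iPS cells, which are induced pluripotent stem cells made from club cells (iPS). The others were club cells as isolated (Day0), cells called Club-iPL that had been cultured with doxycycline for 3 weeks (3W+Dox), and such cells after 2 more weeks in medium without the drug (3W+Dox+2W-Dox, called withdrawn cells below). Club cells line the airways and secrete proteins into them, and doxycycline is a drug used to switch on inducible transgenes. The labels say Lung and Adult for each population. Strain, transgene, sex, number of animals and the use of feeder cells are not stated there. Culture without doxycycline from the start was not analysed here, so the drug and the time in culture cannot be told apart.

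Colony-stimulating factors drive the survival and growth of blood cells of the myeloid line. Csf1 (M-CSF) and Il34 are separate ligands of the same receptor, Csf1r, which macrophages need, while Csf2 (GM-CSF) and Csf3 (G-CSF) act on macrophages and granulocytes through receptors of their own. In the lung, Csf2 made by epithelium is known for its part in the maturation of alveolar macrophages. Il1a, Il1b and Il33 belong to the IL-1 family, whose receptors signal to NF-kB, and Il6 and Lif share the signalling chain Il6st (gp130). Il33 and Tslp are called alarmins, since barrier cells release them on injury. Lif is also the factor that keeps mouse pluripotent stem cells in culture from differentiating.

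Signals are log2 values of RMA, in which 1 unit is a 2-fold difference. A call of higher or lower needed a difference of 2 log2 units (4-fold) or more, with the brighter signal not under 6.67, which is the median over the whole table. As a yardstick for weak signals, the 95th percentile of 1354 olfactory and vomeronasal receptor probe sets was used, called the sensory receptor level here; it was 5.77 in iPS cells, 5.82 at Day0, 5.64 at 3W+Dox and 5.73 in withdrawn cells. A signal at or under that level has only an upper bound, so a fold against it is given as a lower bound ("at least"), computed from the level itself. With 1 array per population there is no spread between replicates, so no difference below has a replicate check or a p-value. Signals of different genes come from different probes and are not ranked against each other.

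Of the 10 members, 3 were higher at 3W+Dox against Day0 (Csf1, Tslp and Il1a), where 4.31% of all named genes were. As a bound, Il1a was at least 2.17-fold higher, which does not reach 4-fold. Lif differed by over 2-fold in the same direction. Il6 did so as measured, but as a bound it was at least 1.82-fold higher. RefSeq promoter windows (GRCm38.p6) were at hand for 7 of the 10 members, and Csf3, Il34 and Tslp had none. The 250 bases before the start of the gene are shown for those 4 of these 5 genes that had a window, 5′ to 3′ on the strand of the gene. Capitals mark every match, on either strand, to 4 motifs bound by factors of inflammatory gene control or by the basal machinery: NF-kB as GGGANNNTCC, AP-1 as TGANTCA, C/EBP as TTGCNNAA and the TATA box as TATAAA. The spelling of the NF-kB motif was chosen with these sequences in view.
Csf1 (chr3:107760470-107760719, minus strand): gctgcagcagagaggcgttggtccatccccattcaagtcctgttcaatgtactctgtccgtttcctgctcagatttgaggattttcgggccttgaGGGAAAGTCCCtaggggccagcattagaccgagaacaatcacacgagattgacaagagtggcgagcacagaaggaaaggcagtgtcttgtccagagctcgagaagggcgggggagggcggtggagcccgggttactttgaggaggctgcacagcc
Il1a (chr2:129309973-129310222, minus strand): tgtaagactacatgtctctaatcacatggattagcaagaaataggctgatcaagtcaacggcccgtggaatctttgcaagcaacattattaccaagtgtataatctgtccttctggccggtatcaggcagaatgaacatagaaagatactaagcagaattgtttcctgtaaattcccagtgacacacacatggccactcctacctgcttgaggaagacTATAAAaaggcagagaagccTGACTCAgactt
Il6 (chr5:30012864-30013113, plus strand): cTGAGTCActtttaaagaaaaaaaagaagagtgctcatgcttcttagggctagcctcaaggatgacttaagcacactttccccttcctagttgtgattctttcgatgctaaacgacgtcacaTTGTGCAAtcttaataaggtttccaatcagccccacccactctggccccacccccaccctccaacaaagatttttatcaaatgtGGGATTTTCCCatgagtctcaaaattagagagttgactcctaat
Lif (chr11:4257318-4257567, plus strand): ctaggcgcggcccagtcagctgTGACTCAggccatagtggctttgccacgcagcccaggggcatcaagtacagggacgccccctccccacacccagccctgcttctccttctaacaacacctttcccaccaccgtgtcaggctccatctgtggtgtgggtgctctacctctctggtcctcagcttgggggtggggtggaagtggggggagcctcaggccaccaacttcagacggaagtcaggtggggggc

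The Csf1 window held GGGAAAGTCCC, an NF-kB match on both strands, 155 to 145 bases before the start. The Il6 window held the NF-kB match GGGATTTTCCC 44 to 34 bases before the start, the C/EBP match TTGTGCAA at 128 to 121 bases and the AP-1 match TGAGTCA at 249 to 243 bases. The Il1a window held a TATA box 32 to 27 bases and the AP-1 match TGACTCA 12 to 6 bases before the start, and the Lif window held TGACTCA at 228 to 222 bases. The 2 NF-kB stretches were the only places in the member windows where matches overlapped. Over all 32851 windows of that length, 3.86% held the NF-kB motif, 6.75% the AP-1 motif, 9.56% the C/EBP motif and 12.4% a TATA box. Because the NF-kB spelling was chosen with the member sequences in view, its share does not measure how unusual the NF-kB matches are. Il33 has 2 starts in the table, each with 1 TATAAA match in its window. The match lay 203 to 198 bases before the earlier start and 29 to 24 bases before the later one. The window of the later start also held the C/EBP match TTGCATAA. With 1 probe set per gene, transcripts from the 2 starts cannot be told apart. Of the genes under the sensory receptor level on every array, Csf2 had the C/EBP match TTGCCCAA and Il1b a TATA box. These are matches of letters and do not show that a factor was bound.

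The genes of the Csf1r ligands differed from Day0 in opposite directions in iPS cells. Csf1 (Entrez gene 12977) read 10.02 in iPS cells, and 6.63 at Day0, 11.72 at 3W+Dox and 12.25 in withdrawn cells. Day0 was thus the low population, both cultures of the doxycycline series were high and iPS cells lay between them. The difference of Csf1 at 3W+Dox from Day0 was 5.09 log2 units, or 34.1-fold, and only 106 genes had a larger one. Against Day0 it was 49.3-fold higher in withdrawn cells and 10.5-fold higher in iPS cells. The Csf1 signal of withdrawn cells was 0.53 log2 units above that of 3W+Dox cells, within 2-fold.

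Il34 (Entrez gene 76527), the second Csf1r ligand, known from keratinocytes and neurons, read 6.34 in iPS cells, and 9.15 at Day0, 8.17 at 3W+Dox and 8.53 in withdrawn cells. Day0 had the highest Il34 signal and iPS cells the lowest, whereas Day0 had the lowest Csf1 signal. Il34 was 7.01-fold lower in iPS cells than at Day0, by 2.81 log2 units. The 3W+Dox signal of Il34 lay 0.98 log2 units under Day0, just inside 2-fold, and the withdrawn signal lay 0.62 units under Day0.

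**Figure D1:**
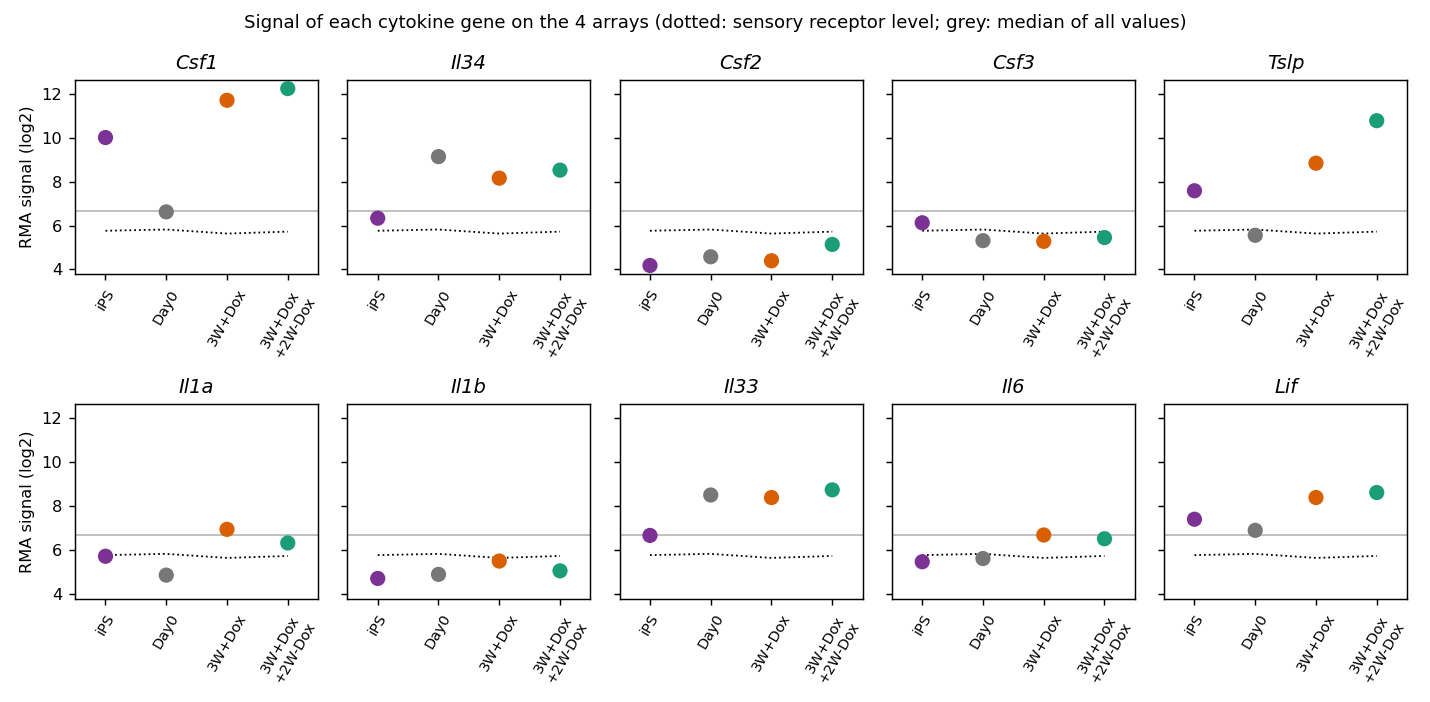
RMA signal (log2, vertical axis) of each of the 10 cytokine genes on the 4 arrays, 1 point per array, with the sensory receptor level dotted and the median of all values (6.67) in grey. Csf1, Tslp and Lif are lowest at Day0 and highest in withdrawn cells. Il34 is highest at Day0, and Csf2 and Il1b lie under the dotted level on all 4 arrays.

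The granulocyte factors were near the sensory receptor level. Csf2 (Entrez gene 12981) read 4.18 in iPS cells, and 4.58 at Day0, 4.40 at 3W+Dox and 5.14 in withdrawn cells, under the level on each array. Csf3 (Entrez gene 12985) read 6.13 in iPS cells, and 5.31 at Day0, 5.28 at 3W+Dox and 5.46 in withdrawn cells, so its one signal above the level was that of iPS cells. A difference in these genes could not be detected where both signals were under that level.

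Tslp (Entrez gene 53603), an alarmin that activates dendritic cells and other cells of allergic inflammation, had the widest span after Csf1. It read 7.59 in iPS cells, and 5.56 at Day0, 8.85 at 3W+Dox and 10.79 in withdrawn cells. The Day0 signal was under the sensory receptor level, and the other 3 populations were above it in steps of over 1 log2 unit. Tslp was thus at least 8.14-fold higher at 3W+Dox, at least 31.2-fold higher in withdrawn cells and at least 3.41-fold higher in iPS cells than at Day0. The measured differences were 3.29, 5.23 and 2.03 log2 units, and the last of these passes 4-fold as measured but not as a bound.

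Tslp was also the member that differed most between withdrawn and 3W+Dox cells. The withdrawn signal was 3.83-fold above the 3W+Dox signal, by 1.94 log2 units, which falls just short of the 4-fold threshold. Only 80 of 23185 genes had a larger increase in that comparison, and 96.0% of all named genes lay within 2-fold. The other 9 members lay within 2-fold of their 3W+Dox signal, between -0.62 for Il1a and 0.74 for Csf2, so 0 of 10 members were counted as higher or lower after withdrawal. Over all named genes 0.302% were counted as higher and 0.47% as lower.

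In the IL-1 family, Il1a, Il1b and Il33 each had a pattern of its own. Il1a (Entrez gene 16175), active without cleavage and released by damaged cells, read 5.71 in iPS cells, and 4.85 at Day0, 6.94 at 3W+Dox and 6.32 in withdrawn cells. Only the 2 cultures of the doxycycline series were above the sensory receptor level. The measured difference of Il1a at 3W+Dox from Day0 was 2.09 log2 units, and as a bound it was at least 2.17-fold. Il1a therefore passes 4-fold by its measured Day0 signal and not by the bound.

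Il1b (Entrez gene 16176), which needs cleavage by caspase-1, read 4.70 in iPS cells, and 4.89 at Day0, 5.50 at 3W+Dox and 5.05 in withdrawn cells, under the level on all 4 arrays. Il33 (Entrez gene 77125), a nuclear cytokine of barrier and stromal cells, read 6.66 in iPS cells, and 8.51 at Day0, 8.39 at 3W+Dox and 8.74 in withdrawn cells. Its 3 signals outside iPS cells lay within 0.35 log2 units of each other, and the iPS signal stood apart from them. In iPS cells Il33 was lower than at Day0 by a difference of -1.84 log2 units, or 3.59-fold, under the threshold for a call.

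Il6 and Lif, both ligands of gp130 receptors, showed smaller differences in the same direction. Il6 (Entrez gene 16193) read 5.46 in iPS cells, and 5.61 at Day0, 6.68 at 3W+Dox and 6.51 in withdrawn cells, with the first 2 under the sensory receptor level. At 3W+Dox Il6 was at least 1.82-fold above Day0. Lif (Entrez gene 16878) read 7.40 in iPS cells, and 6.90 at Day0, 8.39 at 3W+Dox and 8.62 in withdrawn cells, above the level on all 4 arrays. The Lif signal was 2.82-fold above Day0 at 3W+Dox and 3.31-fold above it in withdrawn cells, both under the 4-fold threshold, and 1.42-fold above it in iPS cells.

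Counted together, 3 of 10 members were higher at 3W+Dox against Day0 and 0 were lower, where 4.31% of all 23185 named genes were higher and 2.88% lower. The median difference of the members was 0.84 log2 units, beside -0.09 over all named genes. In withdrawn cells 2 of 10 (Csf1 and Tslp) were higher than at Day0 and 0 lower, against 4.05% and 1.85% of all genes, with a median of 0.73 beside -0.08. In iPS cells 2 (Csf1 and Tslp) were higher and 1 (Il34) lower than at Day0, against 4.89% and 5.9% of all genes, with a median of 0.18 beside 0.00. These comparisons share the Day0 array. As bounds, Il1a at 3W+Dox (at least 2.17-fold) and Tslp in iPS cells (at least 3.41-fold) do not reach 4-fold. The members were chosen with earlier results of these data known, so the shares of all genes are a scale and not a test. The other members were counted as neither.

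**Figure D2:**
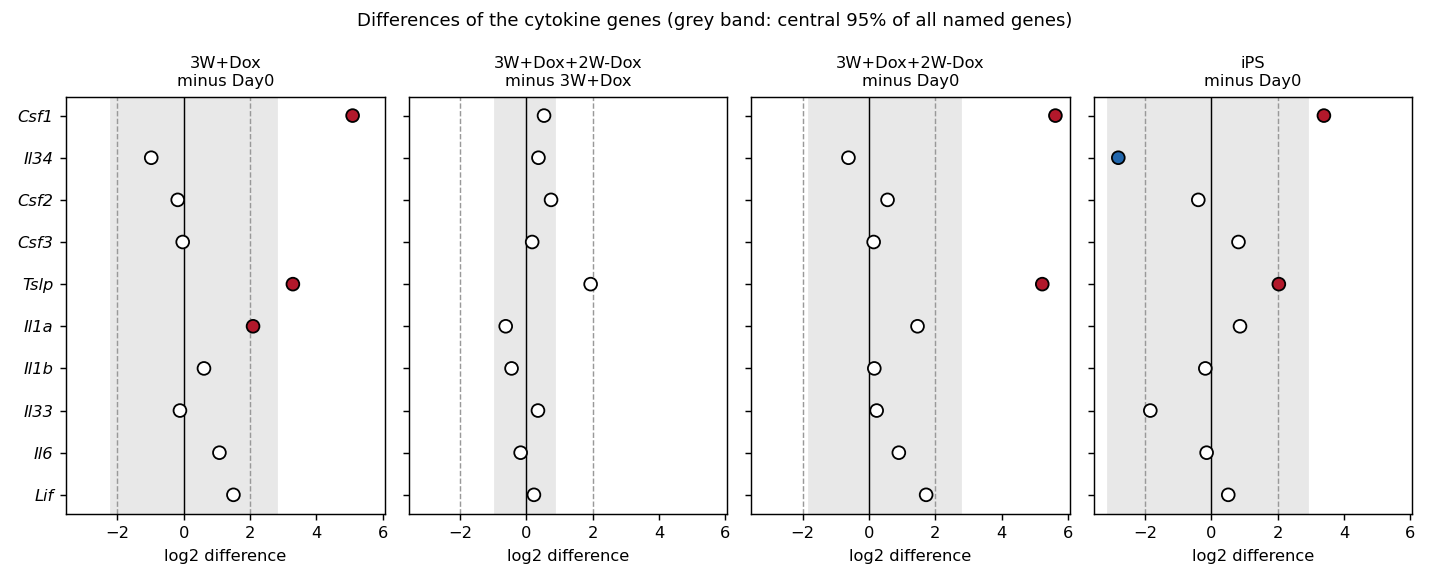
Difference in RMA signal (log2, horizontal axis) of each cytokine gene in 4 comparisons, 1 point per gene, red where counted as higher, blue where counted as lower and white where neither. The dashed lines mark 2 log2 units and the grey band holds the central 95% of all named genes. Csf1 lies to the right of the band in the 3 comparisons with Day0, and Tslp lies to the right of it in the first 3 panels.

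The receptors of these cytokines were measured for 13 of 14 genes listed, Il1rl1 (the Il33 receptor) having no named probe set. At 3W+Dox 1 receptor was higher than at Day0 (Csf1r) and 1 lower (Il6ra), where 4.31% and 2.88% of all named genes were. The same counts held in withdrawn cells, beside 4.05% and 1.85% of all named genes. The median differences of the receptors were 0.69 and 0.75, beside -0.09 and -0.08 over all named genes. With signals under the sensory receptor level set to it, the receptor medians were 0.34 and 0.24. In iPS cells 0 were higher and 2 lower than at Day0 (Il6ra and Ptprz1), against 4.89% and 5.9% of all named genes. The receptor median there was -0.09, beside 0.00 over all named genes. Csf1r, the receptor shared by Csf1 and Il34, read 6.74 in iPS cells, and 6.83 at Day0, 9.29 at 3W+Dox and 8.97 in withdrawn cells. The signals of Csf1r in iPS cells and at Day0 were within 2-fold of each other, whereas Csf1 was 10.5-fold higher in iPS cells. Ptprz1, a phosphatase that is a second receptor of Il34, read 5.34 in iPS cells, and 8.77 at Day0, 9.46 at 3W+Dox and 8.31 in withdrawn cells.

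Both chains that bind Csf2 were above the sensory receptor level on all 4 arrays, on which Csf2 itself was not. Csf2rb, the common beta chain, read 6.20 in iPS cells, and 6.10 at Day0, 8.09 at 3W+Dox and 7.96 in withdrawn cells. Its difference at 3W+Dox, 1.99 log2 units, was just under the threshold. Csf2rb2, its mouse paralog for Il3, read 5.33 in iPS cells, and 5.68 at Day0, 7.20 at 3W+Dox and 7.18 in withdrawn cells, and probes may not fully separate the pair. Csf2ra, the alpha chain, differed by at most 0.75 log2 units from Day0. Csf3r, the receptor of Csf3 on neutrophils, was under the sensory receptor level on all 4 arrays, with signals of 4.98 to 5.49.

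Il6ra, the alpha chain that binds Il6, read 6.65 in iPS cells, and 10.66 at Day0, 8.03 at 3W+Dox and 8.05 in withdrawn cells. It was thus lower than at Day0 on each of the other arrays, by -4.01 in iPS cells, -2.64 at 3W+Dox and -2.61 in withdrawn cells. Il6st, the shared signalling chain gp130, read 10.84 in iPS cells, and 12.11 at Day0, 12.19 at 3W+Dox and 12.02 in withdrawn cells. Lifr, which pairs with gp130 to bind Lif, read 10.06 in iPS cells, its highest signal, and 9.43 at Day0, 9.22 at 3W+Dox and 9.04 in withdrawn cells. The 4 signals of Lifr span about 1 log2 unit.

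Il1r1, the signalling receptor of Il1a and Il1b, read 7.44 in iPS cells, and 9.04 at Day0, 10.33 at 3W+Dox and 10.18 in withdrawn cells. Il1rap, the chain it shares with the Il33 receptor, differed from Day0 by -1.53 in iPS cells, -0.54 at 3W+Dox and 0.01 in withdrawn cells. Crlf2, which binds Tslp, read 7.79 in iPS cells, and 7.41 at Day0, 8.58 at 3W+Dox and 8.30 in withdrawn cells. Il7r, its partner chain, read 4.54 in iPS cells, and 4.20 at Day0, 4.99 at 3W+Dox and 6.06 in withdrawn cells, so withdrawn cells held its one signal above the sensory receptor level.

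**Figure D3:**
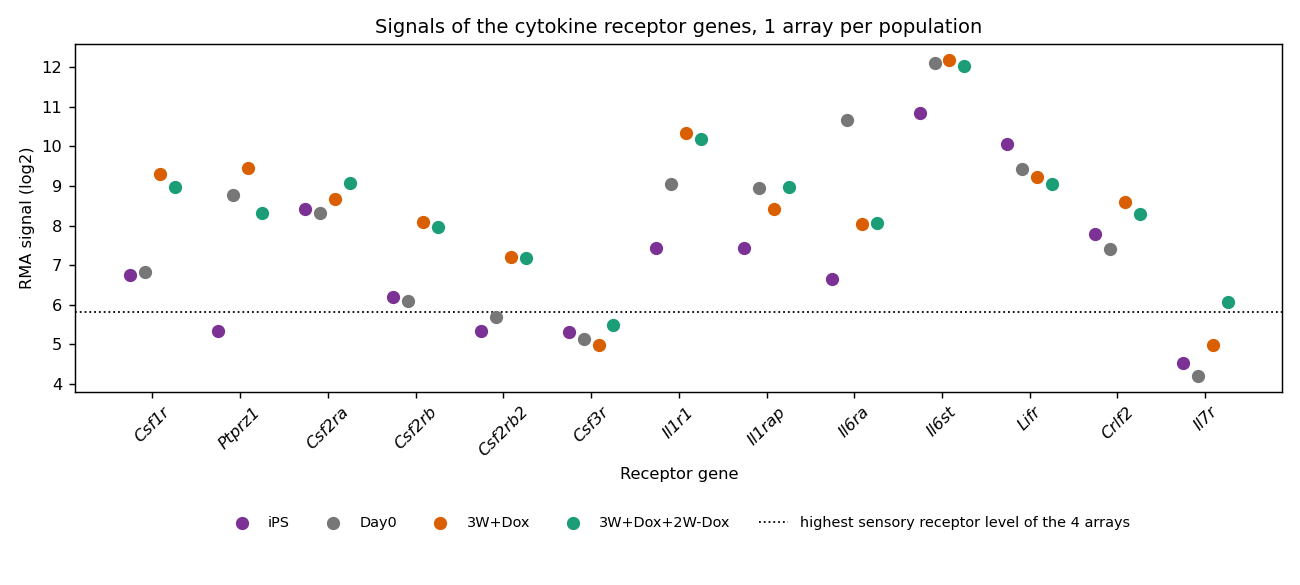
RMA signal (log2, vertical axis) of 13 receptor genes of the cytokines, 1 point per array, with the highest sensory receptor level of the 4 arrays (5.82) dotted. Csf1r, Csf2ra, Csf2rb, Csf2rb2, Il1r1, Crlf2 and Il7r are higher at 3W+Dox and in withdrawn cells than in iPS cells and at Day0. Of the signals of Il7r, only that of withdrawn cells is above the dotted line. Il6ra is highest at Day0.

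Genes that restrain or process these cytokines were read from lists, and where the dimmer signal was at or under the sensory receptor level, the bound is given; the counts use the measured signals. Of 14 genes listed as inhibitors and decoys, 1 was higher and 0 lower at 3W+Dox against Day0, where 4.31% and 2.88% of all named genes were. That gene was Il1rn, the antagonist of the Il1a and Il1b receptor, which read 7.70 in iPS cells, and 6.98 at Day0, 9.49 at 3W+Dox and 10.18 in withdrawn cells. In iPS cells 0 of the list were higher and 2 lower than at Day0, against 4.89% and 5.9% of all named genes. Zfp36, which speeds decay of cytokine mRNA, was lower by -3.79. The other, Il1rl2, was lower by -2.91, and it is the receptor of IL-36 rather than an inhibitor or decoy.

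Of 12 genes listed for IL-1 family processing, 2 were higher and 1 lower at 3W+Dox against Day0, where 4.31% and 2.88% of all named genes were. Aim2, a DNA sensor that forms an inflammasome, read 10.30 in iPS cells, and 5.15 at Day0, 8.95 at 3W+Dox and 7.76 in withdrawn cells. Against Day0, Aim2 was at least 8.75-fold higher at 3W+Dox and at least 22.3-fold higher in iPS cells. In withdrawn cells it was at least 3.83-fold higher, which does not reach 4-fold as a bound. Il18 is itself an IL-1 family cytokine activated by caspase-1 and does no processing. It read 4.36 in iPS cells, and 6.25 at Day0, 8.96 at 3W+Dox and 6.44 in withdrawn cells. After withdrawal Il18 was thus lower by -2.52. In iPS cells 1 of the 12 was higher than at Day0 (Aim2) and 3 were lower, against 4.89% and 5.9% of all named genes. Casp4, an inflammatory caspase, was lower at 3W+Dox by -2.09 and at least 14.5-fold lower in iPS cells. Casp8, which can cleave Il1b, was lower in iPS cells than at Day0 by -2.86. Casp1, the main Il1b protease, was under the sensory receptor level in iPS cells and read 6.67 at Day0, so as a bound it was at least 1.87-fold lower, which does not reach 4-fold.

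Transcription factors that commonly drive cytokine genes were measured for 23 of 24 listed, Nfkb1 having no named probe set. At 3W+Dox against Day0, 0 were higher and 1 lower (Atf3, a stress-induced repressor of cytokine genes, by -2.66), with a median of -0.07. In that comparison 4.31% of all named genes were counted as higher and 2.88% as lower, with a median of -0.09. In iPS cells 0 of the factors were higher and 8 lower than at Day0, against 4.89% and 5.9% of all named genes. The median of the factors there was -1.38, beside 0.00 for all named genes. The 8 lower factors included the AP-1 subunits Fosb and Fos, by -5.49 and -5.15, and Atf3, by -4.80. Another was Cebpa, a myeloid and lung epithelial factor, by -4.44. Of 20 adaptors, kinases and Toll-like receptor genes, 2 were counted as higher and 1 as lower at 3W+Dox against Day0. The shares of all named genes were 4.31% and 2.88%. Irak3, which damps Toll-like receptor signalling, was at least 7.14-fold higher. Tlr6 was at least 2.17-fold higher and so under 4-fold as a bound. Tlr5, the flagellin receptor, was the lower one, by -2.89. In iPS cells 1 was higher and 7 lower than at Day0, against 4.89% and 5.9% of all named genes. The lower ones included Tlr3 by -4.52, Tlr5 by -4.15, Ly96, the Tlr4 partner, by -3.77 and Cd14, its co-receptor, by -3.53.

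Of 41 other cytokine genes, 2 were counted as higher and 1 as lower at 3W+Dox against Day0, near the 4.31% and 2.88% of all named genes. In iPS cells those shares were 4.89% and 5.9%. Tnf, the cytokine TNF-alpha, read 6.71 in iPS cells, and 6.33 at Day0, 10.31 at 3W+Dox and 8.66 in withdrawn cells. The withdrawn signal of Tnf lay between those of Day0 and 3W+Dox. Csf1, Tslp, Lif and Il33 were highest in withdrawn cells, all but Tslp within 2-fold of their 3W+Dox signal. Mif, which holds macrophages in place, was higher at 3W+Dox by 2.10 and Tnfsf10, the death ligand TRAIL, at least 4.02-fold lower. In iPS cells 1 was higher than at Day0 (Mif, by 2.81) and 3 lower: Kitl, the ligand of Kit, by -2.93, Flt3l, a growth factor of dendritic cells, by -2.12, and Tnfsf10, which was at least 3.68-fold lower as a bound, with 4.64 in iPS cells and 7.64 at Day0.

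Acute phase genes are common targets of Il6 and Il1b in liver and epithelium. Of 15 measured, 3 were higher and 1 lower at 3W+Dox against Day0, where 4.31% and 2.88% of all named genes were. Those shares were 0.302% and 0.47% after withdrawal, and 4.89% and 5.9% in iPS cells. Serpina3n, a protease inhibitor, was higher by 5.92 and Ptx3, a pentraxin, by 2.76. Saa1, serum amyloid A, was at least 6.68-fold higher, while Hp, haptoglobin, was lower by -3.33. In withdrawn cells Saa1 was at least 7.14-fold lower than at 3W+Dox and Hp higher by 2.46, and these were the only 2 of the 15 counted in that comparison. In iPS cells 1 was higher than at Day0 (Serpina3n, by 2.97) and 4 lower, among them Hp by -7.32, Lbp, which carries endotoxin, by -4.11 and Lrg1 by -3.03.

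Markers of other cells moved on the same arrays. Of 19 macrophage markers, 15 were higher at 3W+Dox against Day0, by a median of 3.35 log2 units, and 16 in withdrawn cells, by 3.55. The median macrophage signal was 6.89 in iPS cells, and 6.20 at Day0, 9.49 at 3W+Dox and 9.88 in withdrawn cells, and 19 of 19 were above the sensory receptor level at 3W+Dox and in withdrawn cells, against 15 in iPS cells and 13 at Day0. In iPS cells 0 of the 19 were higher than at Day0 and 1 was lower (Cd14), with a median of 0.39 and differences from -3.53 to 1.72. Csf1r is one of these markers. Of 16 fibroblast markers, 15 were higher at 3W+Dox against Day0, with a median difference of 5.12, and 11 were higher in iPS cells, with a median of 3.06. With signals under the sensory receptor level set to it, those medians were 4.74 and 2.96, and 14 and 10 of the genes still differed by 4-fold or more; for the macrophage list at 3W+Dox they were 2.97 and 14. Fibroblast markers above the level numbered 14 in iPS cells, and 7 at Day0, 15 at 3W+Dox and 16 in withdrawn cells. Their median signal was 9.04 in iPS cells, and 5.70 at Day0, 11.66 at 3W+Dox and 11.88 in withdrawn cells.

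Airway and alveolar markers were above the sensory receptor level in 9 of 16 cases in iPS cells, against 16 at Day0, 16 at 3W+Dox and 16 in withdrawn cells, and the array of isolated club cells also carried alveolar transcripts such as Sftpc (13.49). Of these 16, 1 was counted as higher (Muc5ac) and 3 as lower (Scgb3a2, Foxj1 and Ager) at 3W+Dox against Day0, with a median of -0.96, and 14 were lower in iPS cells, with a median of -5.78. Of 12 endothelial markers, 1 (Eng) was counted as higher and 1 (Kdr) as lower at 3W+Dox, and 3 as higher and 1 as lower in iPS cells. General epithelial markers had a median signal of 9.53 in iPS cells, and 10.91 at Day0, 11.08 at 3W+Dox and 10.30 in withdrawn cells. Of this list of 12, none rose and 1 (Ovol1) fell past the threshold at 3W+Dox against Day0. Among 15 granulocyte and mast cell markers 0 were higher and 1 lower at 3W+Dox against Day0 (Retnlg, at least 4.08-fold), and among 13 lymphocyte markers the counts were also 0 and 1 (Cd79b, by -3.08). All these counts stand beside 4.31% higher and 2.88% lower over all named genes at 3W+Dox, and 4.89% and 5.9% in iPS cells. The part of macrophages and fibroblasts in the signals of Csf1, Tslp, Il1a, Lif and Csf1r was not tested. In such bulk RNA, more cells of a type and more RNA per cell cannot be told apart. Pluripotent cell markers had a median of 10.38 in iPS cells, and of 5.20 at Day0, 5.79 at 3W+Dox and 5.45 in withdrawn cells, as the iPS label says.

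**Figure D4:**
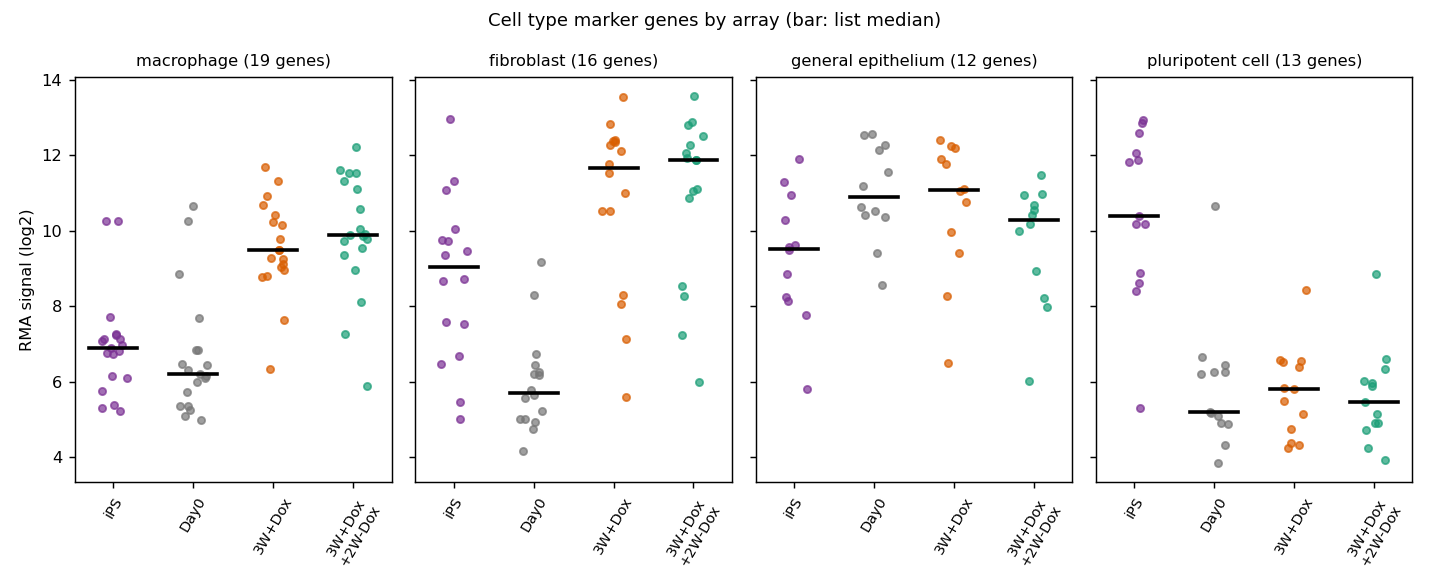
RMA signal (log2, vertical axis) of marker genes of 4 cell types on the 4 arrays, 1 point per gene and a bar at the median of each list. The medians of macrophage and fibroblast markers are higher at 3W+Dox and in withdrawn cells than at Day0, and the fibroblast median is also higher in iPS cells, with values of 9.04 in iPS cells and 5.70 at Day0.

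The genes whose 4 signals followed a member most closely were found by the Euclidean distance between log2 signals centred on the mean of each gene, over 4 arrays and 18767 genes. This was done for the 5 members that spanned at least 2 log2 units and reached 6.67 on 1 array or more. Nearest to Csf1 were Loxl1, which cross-links elastin, at a distance of 0.26 log2 units, Pdgfra, a receptor of mesenchymal cells, at 0.29, and Sdc3, a syndecan, at 0.31. Pdgfra read 8.73 in iPS cells, and 5.64 at Day0, 10.53 at 3W+Dox and 10.87 in withdrawn cells, and it is also one of the fibroblast markers above. Nearest to Tslp were the T cell receptor segment Trbj2-3 at 0.38, Raet1d, a stress ligand of natural killer cells, at 0.48 and Fcgr3, an Fc receptor of myeloid cells, at 0.65. With 1 segment of a T cell receptor leading that list and the largest distances of the 5, the pattern of Tslp had the least close match.

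Nearest to Il34 were Slco3a1, an organic anion transporter, at 0.06, Aig1 at 0.12 and Cavin2, a protein of caveolae, at 0.12. Nearest to Il33 were Sgcb, a sarcoglycan, at 0.11, Pcdhgb6, a protocadherin, at 0.12 and Slc48a1, a heme transporter, at 0.12. Nearest to Il1a were Ifi203, an interferon-inducible gene, at 0.16, Lacc1, an enzyme of macrophages, at 0.17 and Ptpdc1 at 0.17. With 4 arrays and this many genes some near match is to be had for most patterns, and these names are a description only.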

How the data were processed

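RNA of 4 populations was hybridised to 1 Affymetrix array each and grouped by sample title. Total RNA was extracted with RNeasy columns and prepared with the Ambion WT kit, per the labels' protocols. The deposited values are log2 signals made by the authors with RMA (background correction, quantile normalization, 1 value per probe set) with the affy package in R 3.0.2, per the submitters' processing notes. Their range (1.70 to 13.85) shows the log2 scale. Of 25206 probe sets, each an Entrez gene ID, 23185 had 1 symbol in the platform annotation, none had several and 2021 had no symbol and were left out. No source used here names the genome build or annotation version. Nothing was normalized again for the main results.

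Differences of log2 signals were computed in 4 comparisons with Python 3.11.15 and pandas 2.3.3. The number of arrays limits the precision, and no test was possible with 1 array per population. The members and all gene lists were chosen with earlier results of these data known. Genes named are the 10 members, all measured receptors, up to 4 counted genes of each other list with the largest difference (at 3W+Dox, after withdrawal and in iPS cells), marker genes and the 3 nearest genes to each member. Retnlg, Cd79b, Pdgfra, Ovol1, Cd14, Muc5ac, Scgb3a2, Foxj1 and Ager among the markers were named after their values were seen. Alternatives were a threshold of 1 or 3 log2 units, no filter on dim probe sets, a filter at the 75th percentile or at the sensory receptor level, a second quantile normalization, arrays centred on their brighter genes, and a floor at the 25th percentile (5.07).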

Additional observations from a re-analysis of the deposited data

How the results depend on the processing

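With a threshold of 1 log2 unit, 5 members were higher at 3W+Dox against Day0 (Csf1, Il1a, Tslp, Lif and Il6), 1 was higher after withdrawal than at 3W+Dox (Tslp) and 2 were lower in iPS cells than at Day0 (Il34 and Il33). With 3 log2 units, 1 member was higher in iPS cells (Csf1) and 0 were lower. With a filter at the 75th percentile (8.82), 1 member was higher in iPS cells (Csf1). Il1a was no longer counted at 3W+Dox with 3 log2 units, with the 75th percentile filter and with the floor (difference 1.87), which left 2 members, Csf1 and Tslp, against the main 3. The other 58 of 64 counts, these included, were within 1.5 times their main value. A second quantile normalization, centring on brighter genes and the floor gave 120 member differences, of which 119 moved by at most 0.5 log2 units. The exception was Csf2 after withdrawal, 0.07 with the floor, which lies above its 3W+Dox signal. Il1a at 3W+Dox, Tslp in iPS cells and Il6 rest on signals near the sensory receptor level. No paired analysis was possible because each population has 1 array.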
